A study of Mus musculus with 18 samples.

Results

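The genes described here are 10 genes by which neutrophils and their precursors are recognised: S100a8, S100a9, Ly6g, Camp, Ngp, Ltf, Lcn2, Mpo, Elane and Csf3r. They were chosen by name rather than by a measured value from the 29875 genes of a count table, and the question was whether granulocytes of a dendritic cell (DC) culture differ in RNA level between collagen gels and suspension. The cells came from bone marrow of wild-type C57Bl6/J mice aged 8 to 12 weeks, which the study's methods give as male. They were grown in medium with granulocyte-macrophage colony-stimulating factor (GM-CSF), matured from day 8 with lipopolysaccharide (LPS, 200 ng/ml) for 24 hours, and then loaded into migration chambers. In 4 groups the chambers held gels of bovine collagen at 1.7, 2.6, 3.5 or 4.4 mg/ml, through which the cells moved toward the chemokine CCL19. In 2 groups the same chambers held no collagen (suspension). RNA was extracted when the CCL19 gradient had stood for 5 hours. Each group has 3 replicates, titled as biological, which gives 12 gel and 6 suspension libraries. The suspension groups are titled plus CCL19 and without CCL19, but the library names give the reverse, so these groups are called here by their titles and no direction is drawn for CCL19. Every library came from the whole culture, with no sort of cell types, and the library names give a common date and sequencing lane to all 6 libraries of each replicate number.

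Neutrophils mature in bone marrow through stages at which they fill different granules. Mpo (myeloperoxidase) and Elane (neutrophil elastase) are made early, in promyelocytes, and go into primary granules. Camp (cathelicidin), Ngp (neutrophilic granule protein), Ltf (lactotransferrin) and Lcn2 (lipocalin 2) are made later and go into specific granules, while S100a8 and S100a9 form the cytosolic calprotectin complex, and Ly6g and Csf3r (the receptor for granulocyte colony-stimulating factor) sit at the surface of maturing cells. GM-CSF cultures of bone marrow are known to hold granulocytes next to DCs and macrophages. Some of the genes are not exclusive to granulocytes. For example, Lcn2 is also induced by LPS in macrophages and DCs, and Csf3r is found on monocytes.

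All 10 genes were expressed above the filter on low counts, with 13844 genes tested in all. Total counts ranged from 13062944 to 28059839 per library, and the lowest count of any of the 10 genes in any library was 7, for Mpo. In CPM (counts scaled by library size) divided by exon length in kilobases, the mean level over the 18 libraries was highest for Lcn2 (1182 ± 664, SD, n = 18), S100a8 (1028 ± 744) and S100a9 (955 ± 570). Ngp (676 ± 659), Ltf (167 ± 173) and Camp (72.5 ± 53.6) followed on the same per-kilobase scale. Elane (18.9 ± 29.7), Ly6g (12.4 ± 11.2), Mpo (3.39 ± 4.72) and Csf3r (3.14 ± 1.5) were lowest. Neighbours in this order differed by about 1 SD of the higher level or less. Markers of DCs such as Cd74 and Ccr7 were expressed in every library, and the summed CPM of the 12 DC markers ran from 27137 to 64563 in gels and from 20844 to 59951 in suspension. Over the same libraries the 10 neutrophil genes summed to between 3015 and 8191 CPM in gels and to between 1596 and 18725 CPM in suspension, so the range in suspension enclosed the range in gels.

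The genes lie on 7 chromosomes of GRCm38, and 2 small groups are close to each other. S100a8 (chr3:90668978-90670035, + strand) and S100a9 (chr3:90692632-90695721, − strand) are 22.6 kb apart. Camp (chr9:109847379-109849617), Ngp (chr9:110419747-110423012) and Ltf (chr9:111019271-111042767) follow each other on chromosome 9 with gaps of 570 and 596 kb. Ly6g (chr15:75155240-75159126) lies in a cluster of genes of similar sequence, so its counts are uncertain where reads match several of them. The sequences upstream of Ngp and Ltf are shown because these genes had the highest correlation among the 10, and that of Ly6g because it is the gene that differed between gels and suspension. Each begins 250 bases before the RefSeq start (GRCm38.p6, + strand) and ends at the base before the Ensembl gene model. Capitals mark matches on either strand to TTNNGNAA, a C/EBP core, and to GAGGAA, a PU.1 type motif.
Ngp, chr9:110419558-110419746: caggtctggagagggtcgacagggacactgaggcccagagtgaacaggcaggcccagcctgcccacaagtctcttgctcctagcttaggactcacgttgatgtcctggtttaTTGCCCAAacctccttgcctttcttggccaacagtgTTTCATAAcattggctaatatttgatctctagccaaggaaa
Ltf, chr9:111019042-111019270: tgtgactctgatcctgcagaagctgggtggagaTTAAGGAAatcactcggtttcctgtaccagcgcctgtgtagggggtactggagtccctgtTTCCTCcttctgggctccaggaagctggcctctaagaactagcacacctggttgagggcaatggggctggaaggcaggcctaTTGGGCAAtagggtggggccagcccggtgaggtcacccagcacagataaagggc
Ly6g, chr15:75155011-75155239: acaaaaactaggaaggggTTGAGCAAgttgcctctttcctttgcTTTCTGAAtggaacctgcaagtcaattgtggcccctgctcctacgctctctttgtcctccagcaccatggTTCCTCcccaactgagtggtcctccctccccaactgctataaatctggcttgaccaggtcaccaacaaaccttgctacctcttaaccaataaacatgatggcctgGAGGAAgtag
Within the full 250 bases, TTNNGNAA was present in 6 of the 10 genes and in 36.9% of 27025 RefSeq genes. GAGGAA was present in 7 of 10 against 23.1% of all, and an NF-kB type motif in 1 of 10 (Csf3r) against 3.82%. C/EBP and PU.1 factors are known regulators of granulocyte genes, but a letter match does not show binding, and these data hold no measure of it.

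Collagen gels and suspension were compared first over all densities. The mean of the 4 gel groups was set against the mean of the 2 suspension groups with edgeR's quasi-likelihood test at a false discovery rate (FDR) of 0.1 over all genes tested. Only Ly6g of the 10 genes passed, and it was lower in gels. In the same comparison 20.2% of all genes tested passed, 12.4% lower and 7.78% higher in gels. The count of 1 of 10 did not exceed the share among all genes. The median log2 fold change of the 10 genes was −0.28, against 0.00 for all genes tested. With the replicate number as a block, Ly6g was again the only gene of the 10 that passed, while 34.8% of all genes did. In that fit the median log2 fold change was −0.06 for the 10 genes and 0.01 for all genes tested. Because the libraries come from mixed cells, fewer neutrophils and less RNA per neutrophil cannot be told apart.

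Ly6g, the surface antigen that defines mouse neutrophils, fell 2.41-fold in gels (log2 fold change −1.27, SE 0.35, edgeR's quasi-likelihood test, adjusted p = 0.0245). With the block the log2 fold change was −1.36 (adjusted p = 0.00672). In the gel libraries of replicate 1, from 1.7 to 4.4 mg/ml, Ly6g stood at 12.8, 10.7, 9.81 and 7.40 CPM, and in its suspension libraries at 10.8 (titled plus CCL19) and 7.23 CPM (titled without). In replicate 2 the gels held 5.07, 7.81, 7.94 and 11.2 CPM and the suspension libraries 48.3 and 10.2 CPM. The gels of replicate 3 held 5.88, 2.45, 4.77 and 4.90 CPM, against 24.6 and 18.3 CPM in suspension. The groups overlapped: all 4 gels of replicate 3 lay below both of its suspension libraries, whereas the gels of replicate 1 lay among or above theirs. The gel minus suspension difference in mean log2 CPM was accordingly 0.17, −1.51 and −2.28 in replicates 1, 2 and 3. An exact two-sided permutation test of the 12 gel against the 6 suspension libraries gave p = 0.00549 (unadjusted), and p = 0.0107 when libraries were permuted within replicates. The edgeR call rests on few libraries. It was lost without replicate 2 (log2 fold change −1.05, adjusted p = 0.287), without replicate 3 (−0.82, adjusted p = 0.24), and without the suspension library titled plus CCL19 replicate 2 (−0.95, adjusted p = 0.116).

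The other surface gene, Csf3r, ranged from 3.57 to 16.7 CPM in gels (median 9.84, n = 12) and from 6.49 to 28.8 CPM in suspension (median 11.9, n = 6). Its log2 fold change was −0.47 (95% interval −1.07 to 0.14, edgeR adjusted p = 0.295), and the groups overlapped.

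The calprotectin genes did not pass the test. S100a8 ranged from 191 to 1405 CPM in gels (median 615) and from 144 to 2224 CPM in suspension (median 564), with a log2 fold change of −0.02 (95% interval −1.08 to 1.03, edgeR adjusted p = 0.985). For S100a9 the ranges were 250.1 to 1220 CPM (median 451) and 116 to 968 CPM (median 400.0), with a log2 fold change of 0.31 (−0.61 to 1.23, edgeR adjusted p = 0.681). Gel and suspension libraries overlapped for both genes.

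Among the specific granule genes, which mark the myelocyte stage, the estimates pointed in different directions and none passed. Ngp ranged from 234 to 1537 CPM in gels (median 494) and from 191 to 3546 CPM in suspension (median 729), with a log2 fold change of −0.54 (95% interval −1.65 to 0.57, edgeR adjusted p = 0.539). Ltf ranged from 142 to 1084 CPM (median 347) and from 115 to 2641 CPM (median 552), with a log2 fold change of −0.73 (−1.85 to 0.40, edgeR adjusted p = 0.393). The highest value of both genes was in suspension, and so was the lowest. Camp, an antimicrobial peptide precursor, ranged from 19.9 to 124 CPM in gels (median 40.9) and from 9.97 to 137 CPM in suspension (median 38), with a log2 fold change of 0.35 (−0.78 to 1.48, edgeR adjusted p = 0.713). Lcn2, which binds bacterial siderophores, ranged from 1464 to 4098 CPM (median 2693) and from 959 to 8954 CPM (median 2317), with a log2 fold change of −0.02 (−0.72 to 0.68, edgeR adjusted p = 0.974).

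The primary granule genes varied most and gave the widest intervals. Mpo ranged from 1.04 to 31.4 CPM in gels (median 4.91) and from 0.358 to 64.6 CPM in suspension (median 8.07), with a log2 fold change of −0.42 (95% interval −2.28 to 1.45, edgeR adjusted p = 0.797). Elane ranged from 1.13 to 59.6 CPM (median 7.94) and from 0.502 to 113 CPM (median 8.84), with a log2 fold change of −0.15 (−2.24 to 1.94, edgeR adjusted p = 0.94). Intervals of this width include more than 4-fold changes in the lower direction for both genes. For S100a8, Lcn2, Mpo and Elane the sign was not settled, since the difference in mean log2 CPM was 0.24, 0.20, 0.16 and 0.21 where the fitted change was below 0.

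**Figure D1:**
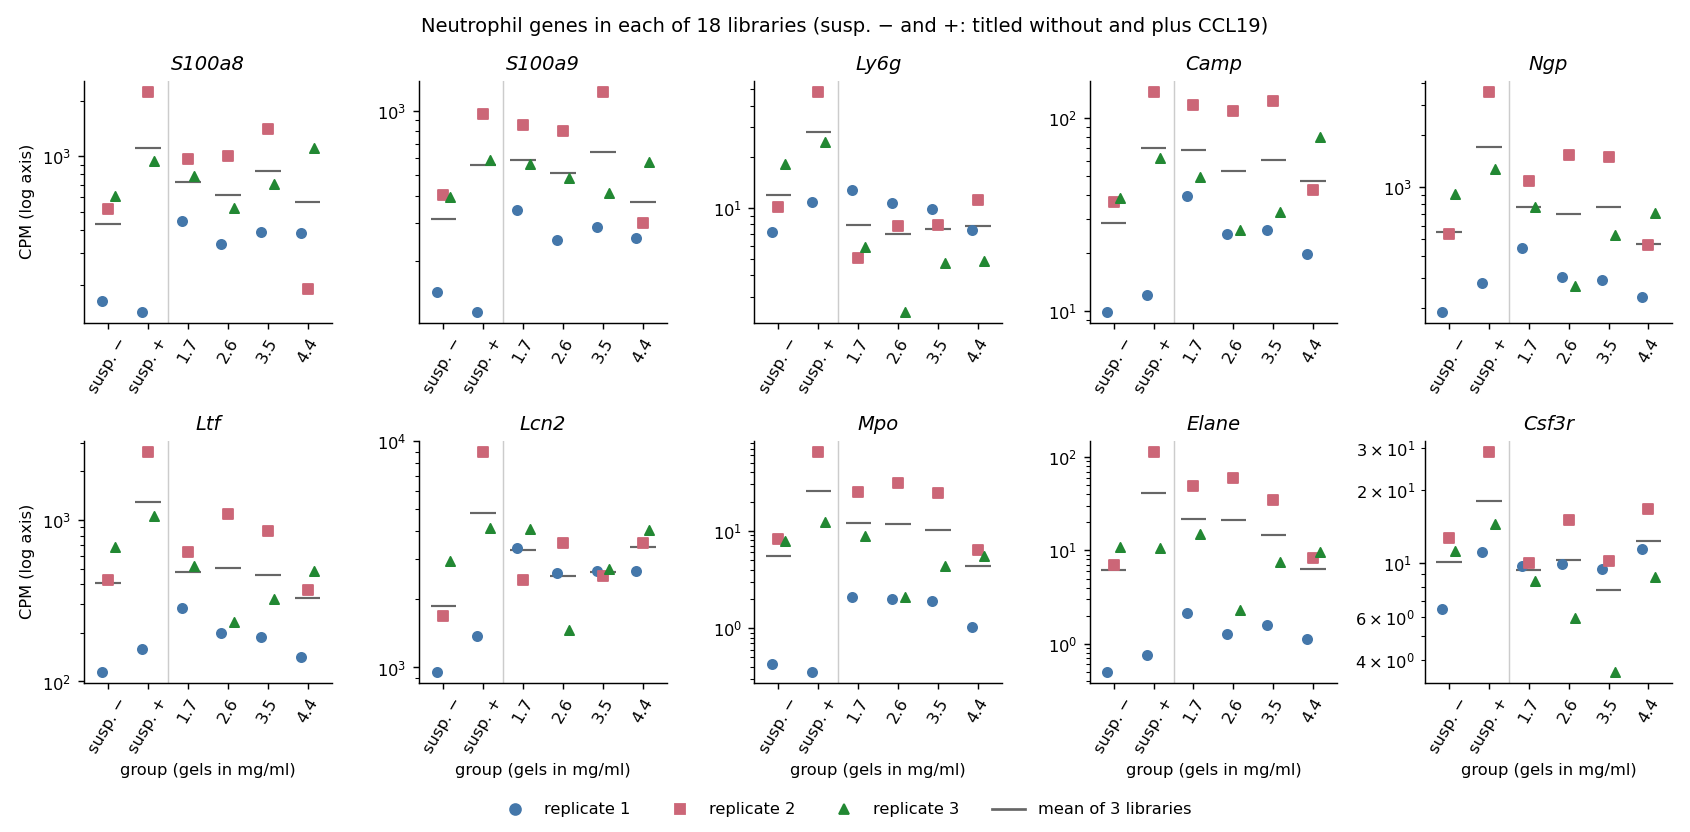
CPM (log axis) of each of the 10 neutrophil genes in the 18 libraries, by group (2 suspension groups, then gels in mg/ml), with a symbol for each replicate number and a bar for the mean of 3 libraries. Most panels are ordered by symbol rather than by group: replicate 1 is lowest, and the suspension library titled plus CCL19 replicate 2 is the highest point for 9 of 10 genes; for Ly6g, gel means sit between 6.98 and 7.91 CPM, below both suspension means of 11.9 and 27.9.

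The replicate number accounted for more of the spread of most genes than the gel did. A test of the replicate number, chosen after the values were seen and made in the edgeR fit with the block, passed for 8 of the 10 genes, where 48.3% of all genes tested passed. The exceptions were Ly6g (edgeR adjusted p = 0.483) and Lcn2 (adjusted p = 0.29). The replicate number carried 76.7% of the sum of squares of log2 CPM for Elane, 75.2% for Mpo, 62.2% for S100a9, 61.5% for Camp, 61.4% for Ltf, 56.3% for Ngp, 44.2% for S100a8 and 34.4% for Csf3r. It carried 16% for Lcn2 and 6.59% for Ly6g, and 25.5% for the median gene tested. Gel against suspension carried 37.3% for Ly6g and at most 11.8% for the other 9 genes (Csf3r), with 8.89% for the median gene tested. A split into more classes can carry a larger share. The 6 groups together carried 49.7% for Ly6g, 37.4% for Csf3r, 29.4% for Lcn2 and 33.6% for the median gene, more than the replicate number. For the remaining genes they carried less than it, from 6.24% (Mpo) to 17.0% (Ngp).

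Elane shows the size of these differences. In the replicate 1 libraries it stood between 0.502 and 2.16 CPM, in replicate 2 between 7.02 and 113 CPM, and in replicate 3 between 2.29 and 14.8 CPM. The medians of the 6 libraries were 1.19, 41.6 and 10.2 CPM. Replicate 1 did not overlap with the others. Mpo followed the same order with medians of 1.48, 25.0 and 6.72 CPM, and so did Ngp with 285, 1293 and 740 CPM. Ly6g did not share it, with medians of 10.2, 9.05 and 5.39 CPM. Between the lowest and the highest library, levels in CPM spanned 226-fold for Elane, 181-fold for Mpo, 23.0-fold for Ltf, 19.7-fold for Ly6g and 18.5-fold for Ngp, and between 8.04-fold (Csf3r) and 15.4-fold (S100a8) for the other 5 genes. Whether cultures, animals or handling on each date underlie these differences cannot be told apart from the labels.

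**Figure D2:**
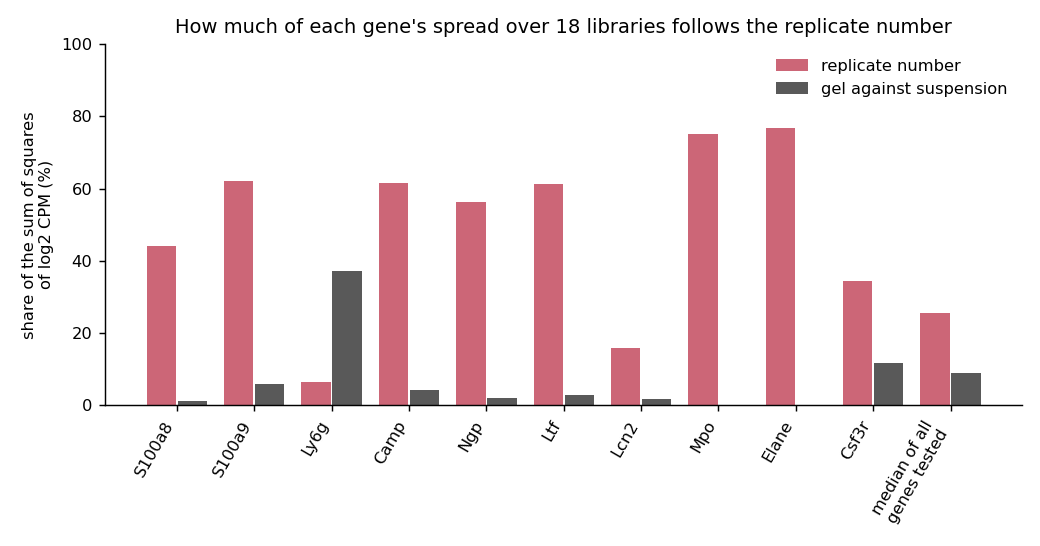
Share of the sum of squares of log2 CPM over 18 libraries (%, y axis) carried by the replicate number and by gel against suspension, for each neutrophil gene and as the median of all genes tested. Replicate number carries the larger share for every gene shown except Ly6g (6.59% against 37.3%).

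Within each replicate, the gels could be compared with suspension cells of the same date. In replicate 1, all 10 genes had a higher mean log2 CPM in the 4 gels than in the 2 suspension libraries, with a median difference of 1.13. In replicate 2, 7 of 10 were lower in gels (median −0.40), and in replicate 3, 9 of 10 were lower (median −0.80). Only S100a9 had the same sign in all 3 replicates, with differences of 1.13, 0.18 and 0.07. Mpo ran from 1.85 in replicate 1 to −1.09 in replicate 3, and Ltf from 0.54 to −1.19. A test of whether the gel effect differed between replicates, an interaction term in edgeR added after the signs were seen, passed for 0 of 10 genes (adjusted p from 0.572 to 0.771) and for 0% of all genes tested. At an unadjusted p below 0.05 it was met by 3 of the 10 and by 998 genes in all, and with no filter on low counts 5 of the 10 passed (S100a8, Ly6g, Ltf, Lcn2 and Mpo), beside 254 of 29875 genes (0.85%). The 10 genes are expressed in overlapping cells, so a shared sign within a replicate is not 10 independent observations.

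**Figure D3:**
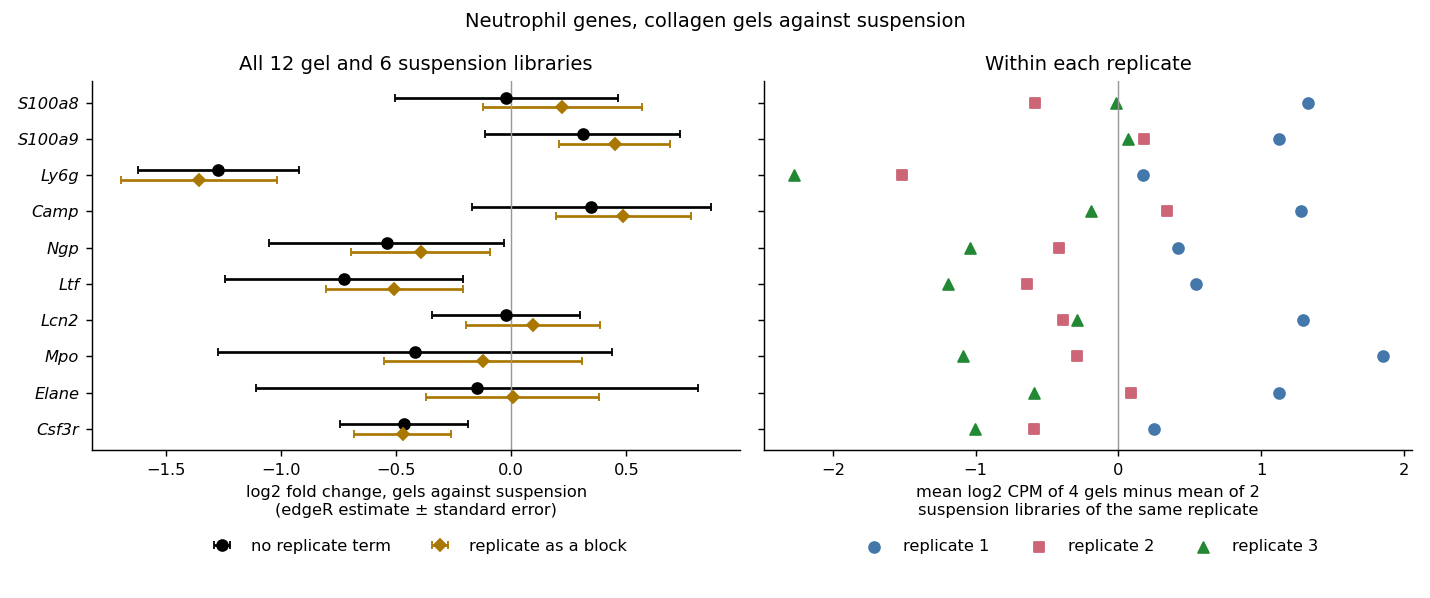
Left, log2 fold change of gels against suspension (edgeR estimate ± SE) for each gene without a replicate term and with the replicate as a block; right, the difference in mean log2 CPM between 4 gels and 2 suspension libraries in each replicate. Ly6g (−1.27 and −1.36) stands below 0 in both fits, and the replicate 1 symbols lie above 0 for all 10 genes.

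Each density was then set against suspension. The mean of the 2 suspension groups is shared by these comparisons, so they are not independent of each other. Without a replicate term, 0 of the 10 genes passed at any density in edgeR's quasi-likelihood test, and 1 gene, Ly6g, had an unadjusted p below 0.05 at each. DESeq2 called Ly6g at 2.6 mg/ml (adjusted p = 0.0913) and 0 of the 10 genes at the other densities. The share of all genes that DESeq2 called is not given here. In edgeR without a replicate term, 0.0361%, 7.87%, 4.9% and 14.8% of all genes passed from the lowest to the highest density. Ly6g had log2 fold changes of −1.20 (SE 0.54, n = 3 gels), −1.39 (0.55), −1.28 (0.54) and −1.22 (0.54) at the 4 densities, with adjusted p of 0.604, 0.161, 0.231 and 0.171. The 4 estimates differed by less than their errors. With the replicate as a block, Ly6g passed at 2.6 mg/ml (−1.51, edgeR adjusted p = 0.0576), 3.5 mg/ml (−1.35, 0.0922) and 4.4 mg/ml (−1.31, 0.0668), but not at 1.7 mg/ml (−1.25, 0.240). Csf3r passed with the block at 3.5 mg/ml alone (−0.83, adjusted p = 0.0966), where its 3 gels held 9.46, 10.3 and 3.57 CPM. The share of all genes that passed with the block was 2.91%, 21.6%, 18.4% and 31.9%.

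None of the 10 genes passed a test of collagen density among genes that met the filter on low counts. Over the 4 gel groups, 0 of 10 passed the test of a linear slope (edgeR, adjusted p from 0.949 to 0.999, with no unadjusted p below 0.05), and 0.00722% of all genes did. DESeq2 called 0 of the 10 as well. With the block, 0 of 10 passed (lowest adjusted p 0.544) and 1.45% of all genes did. With no filter 1 of the 10 (Elane) passed, beside 0.465% of all 29875 genes. The steepest slope was that of Elane, −0.66 log2 units per mg/ml (SE 0.57), and that of Ly6g was 0.01 (SE 0.21). None of the 10 genes passed in any of the 6 pairs of densities (edgeR, lowest adjusted p 0.758, and no unadjusted p below 0.05). The 4.4 mg/ml gel of replicate 2 was low among the gels of its replicate for 7 of 10 genes, with a median log2 difference of −1.51 from the other 3, and that of replicate 1 was low for 9 of 10 (median −0.51). For example, the 4.4 mg/ml gel of replicate 2 held 8.28 CPM of Elane, where the other gels of that replicate held 34.3 to 59.6 CPM. In replicate 3 the 4.4 mg/ml gel was lower than the mean of the others for 0 of 10 genes (median difference 0.58).

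Of the suspension libraries, the library titled plus CCL19 replicate 2 stood apart. It held the highest level of 9 of the 10 genes over all 18 libraries. S100a9 was the exception, with its highest level in the 3.5 mg/ml gel of replicate 2 (1220 CPM, against 968 CPM). Ltf was at 2641 CPM in that suspension library and at 424 CPM in the library titled without CCL19 of the same replicate, and Lcn2 was at 8954 and 1687 CPM. In replicates 1 and 3 the suspension libraries were closer, with median log2 differences over the 10 genes of 0.50 and 0.53 against 2.32 in replicate 2. Between the 2 suspension groups, 0 of 10 genes and 0.0% of all genes passed in edgeR, with and without the block, although Lcn2 and 855 genes in all had an unadjusted p below 0.05 without it. DESeq2 called 0 of the 10 in either fit. Without the block 4 of them had an unadjusted p below 0.05 in DESeq2. The share of all genes at that level in DESeq2 is not given here, so this count has no background. The fitted difference, titled plus minus titled without CCL19, was above 0 for all 10 genes, from 0.83 (S100a9) to 2.77 (Elane), with adjusted p from 0.761 to 0.796.

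Most of the genes varied together over the libraries. Across the 18 libraries, which share dates and groups, the 21 pairs among S100a8, S100a9, Camp, Ngp, Ltf, Mpo and Elane had a Pearson r of log2 CPM from 0.84 to 0.99 (median 0.92). After the mean of each replicate number was subtracted, r ran from 0.60 to 0.98 (median 0.85). The closest pairs, Ngp with Ltf (r = 0.99) and Mpo with Elane (r = 0.98), each lay within a granule class. The pairs after them crossed classes, such as Camp with Mpo (0.95) and Ngp with Elane (0.95). Within the specific granule class, r with Ngp was 0.91 for Camp and 0.73 for Lcn2. Without that subtraction Ly6g was the least alike, with r from 0.06 to 0.76 to the other 9 genes (median 0.31) and the highest value for Csf3r. With it, r for Ly6g ran from 0.07 (S100a9) to 0.80 (Csf3r), with a higher median of 0.53, and was 0.77 for Ltf.

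Genes outside the 10 with the most similar levels were found among all genes tested. Ngp was most like Pglyrp1, a peptidoglycan recognition protein of the same granules (r = 0.99, n = 18), and both Ngp and Ltf had Chil1 among their closest genes (0.98 and 0.99). S100a8 and S100a9 were most like Stfa2l1 (0.97 and 0.96), a stefin A family gene whose near-identical copies make its counts uncertain. Mpo was closest to Elane and then to Ctsg, the cathepsin G of primary granules (0.97), and Elane to Mpo and then Phgdh (0.97). The most similar genes to Ly6g were Mettl22 (0.93), Vav1 (0.90) and Slc35c2 (0.89), and, after the replicate means were subtracted, Mmp9 (0.93), a gelatinase stored in granules of late neutrophils. Lcn2 was most like Ndufb11 (0.95), Ndufa13 (0.93) and Ndufa3 (0.92), subunits of respiratory complex I, and after subtraction Ifitm1 (0.96). Csf3r was most like Nadk (0.91). In this ranking S100a8, Ly6g, Lcn2 and Csf3r had no other gene of the 10 among their 3 closest. After the replicate means were subtracted, the same held for these genes and also for Camp.

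Other neutrophil genes were counted by class in the comparison of gels with suspension. In edgeR 12.4% of all genes tested were lower in gels and 7.78% higher, and 34.8% passed in either direction with the block. The counts for each list below stand beside these shares. Of 4 further primary granule genes tested in edgeR without a replicate term, 0 passed and 0 had an unadjusted p below 0.05 (median log2 fold change −0.45). DESeq2 without a replicate term fitted 5 genes of this list, and 0 of them passed. With the block 1 passed in each tool. In edgeR it was Prss57, a serine protease (−0.87, edgeR adjusted p = 0.0574), which is named after its values were seen. Prtn3, proteinase 3, ran from 6.84 to 91.2 CPM in gels and from 6.38 to 182 CPM in suspension, and Ms4a3 from 0.767 to 55.1 and from 0.580 to 103 CPM. Of 8 further specific and gelatinase granule genes, 1 passed: Mmp9 fell (log2 fold change −0.94, SE 0.29, adjusted p = 0.043), from a median of 94.7 CPM in suspension to 55.2 CPM in gels. That call was lost without replicate 2, without replicate 3, and without either of the suspension libraries of replicate 2. With the block 2 of the 8 were lower, Mmp9 and Itgb2l.

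Of 18 further surface and cytosol genes tested, 5 were lower and 1 was higher in gels (median −0.04, against 0.00 for all genes). Retnlg, a resistin-like protein of neutrophils, fell (log2 fold change −1.74, SE 0.41, edgeR adjusted p = 0.0105), although its median was 0.509 CPM in gels and 2.05 CPM in suspension, a low level. Padi4, which citrullinates histones in neutrophils, fell (−1.31, SE 0.40, adjusted p = 0.0395), and so did Mmp25, a membrane-bound metalloproteinase (−0.74, SE 0.20, adjusted p = 0.0237). The other 2 that fell, Cxcr2 (−1.69, adjusted p = 0.0596) and Asprv1 (−0.86, adjusted p = 0.083), are named after their values were seen. Cxcr2, the receptor by which neutrophils follow chemokines, had a median of 2.78 CPM in gels and 9.99 CPM in suspension. Wfdc21 rose (1.28, SE 0.25, adjusted p = 0.0033), from a median of 57.2 CPM in suspension to 168 CPM in gels. The number that were lower was 1 without replicate 2 and 1 without replicate 3. It was 2 without the suspension library titled plus CCL19 replicate 2, and 3 without the other suspension library of that replicate. With the block 7 were lower and 3 were higher, the last being Wfdc21, Trem1 and Fpr2. In that fit 34.8% of all genes passed in either direction. Retnlg, Padi4 and Mmp25 each lost the call without at least 1 of the replicates, whereas Wfdc21 passed whichever library or replicate was left out. As the libraries hold mixed cells, the cell type that carried Wfdc21 was not measured.

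Among 8 transcription factors of granulocytes, 2 rose and 0 fell without a replicate term. Gfi1, a repressor needed for neutrophil development and also used by other blood cells, rose (log2 fold change 2.71, SE 0.52, edgeR adjusted p = 0.00321), from a median of 1.87 CPM in suspension to 13.7 CPM in gels. Lmo4 rose as well (1.09, SE 0.23, adjusted p = 0.00605). Both passed in every setting that left out a library or a replicate. The libraries hold mixed cells, so the cell type behind either rise was not measured. Cebpe, which drives the specific granule genes, did not pass without a replicate term, with a log2 fold change of −0.85 (SE 0.51, adjusted p = 0.299), but passed with the block (−0.78, edgeR adjusted p = 0.057). With the block 4 of the 8 rose and 1 fell, the further genes that rose being Cebpd and Klf5, where 34.8% of all genes passed.

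Of 12 tested genes for ligands and enzymes that recruit or sustain neutrophils, 3 rose and 1 fell. Il6, Ppbp and Cxcl1 rose with log2 fold changes of 1.61, 1.47 and 1.71 (edgeR adjusted p = 0.0154, 0.0271 and 0.0706), and Alox5, which starts leukotriene synthesis, fell (−0.99, adjusted p = 0.0632). Without replicate 2 the numbers were 1 and 0, as without replicate 3, and over all fits that left out a library or a replicate they ran from 1 to 6 and from 0 to 1. With the block 8 rose, Cxcl2, Cxcl3, Cxcl5, Pf4 and Csf3 among them, and 1 fell. The block also raised the share of all genes that passed in edgeR, from 20.2% to 34.8% in either direction. Of 10 LPS-inducible secreted innate genes, 5 rose and 0 fell, among them Cp (1.36, adjusted p = 0.00458), Il1b (1.92, adjusted p = 0.0163), Nfkbiz (1.32, adjusted p = 0.0245) and Marco (1.26, adjusted p = 0.0597). The number ran from 1, without replicate 2, to 6, without replicate 1, and was 7 with the block in edgeR. In DESeq2, which fitted 12 genes of this list, it was 8 with the block. Lcn2, a member of the 10 that LPS also induces in other cells, had a log2 fold change of −0.02.

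**Figure D4:**
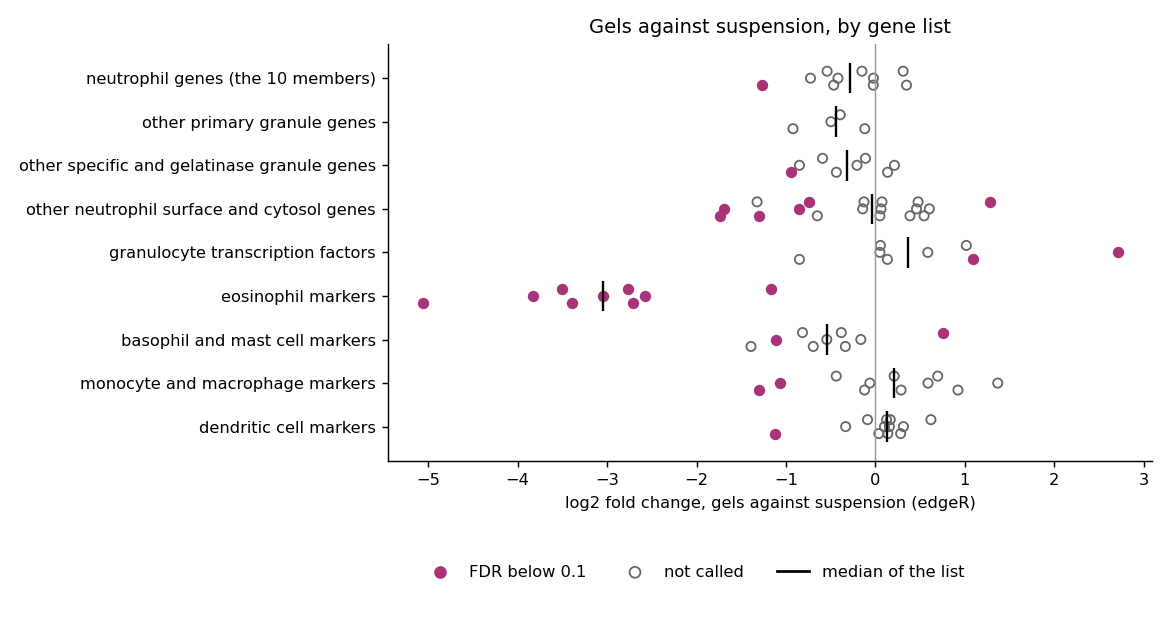
Log2 fold change of gels against suspension (edgeR, x axis) for each tested gene of 9 lists (y axis), filled where the FDR is below 0.1, with a bar at the median of each list. Eosinophil markers lie to the left, from −5.06 to −1.16, while the 10 neutrophil genes spread around 0 with Ly6g as the filled point at −1.27.

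Markers of other cell types were measured in the same libraries. Of 10 eosinophil markers 9 were tested and all 9 were lower in gels, with a median log2 fold change of −3.05. In the same fit, without a replicate term, it was 1 of 10 and −0.28 for the neutrophil genes. The difference between these lists was not tested. Ear1, an eosinophil ribonuclease with near-identical relatives, was at a median of 0.189 CPM in gels and 5.18 CPM in suspension (log2 fold change −5.06, edgeR adjusted p = 0.000479). Ccr3, the eotaxin receptor, was at 0.437 and 4.02 CPM (−3.51, adjusted p = 0.000583). Between 7 and 9 of the eosinophil markers stayed lower in each fit that left out a library or a replicate. Siglecf (−2.71, adjusted p = 0.00103) and Ear6 (−3.40, adjusted p = 0.000668) fell too. The eosinophil markers summed to between 14.8 and 171 CPM in gels and to between 121 and 1385 CPM in suspension.

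Basophil and mast cell markers had 1 gene higher (Hdc, log2 fold change 0.76, edgeR adjusted p = 0.0664) and 1 lower (Kit, −1.11, adjusted p = 0.00308) of 9 tested, and with the block 4 were lower (Kit, Prss34, Ms4a2 and Cd200r3). Monocyte and macrophage markers had 2 lower of 11 (C5ar1, −1.30, adjusted p = 0.0347, and Ccr2, −1.07, adjusted p = 0.0584), and between 0 and 2 in fits that left out a library or a replicate. The median log2 fold change of these 11 was 0.21, and with the block 4 of them were higher in gels (Adgre1, Fcgr1, Cd14 and C1qa) beside the same 2 that were lower. C5ar1, the C5a receptor, is also carried by neutrophils. DC markers had 1 lower of 12 (Flt3, −1.12, adjusted p = 0.0446), and with the block also 1 higher (Itgax) in edgeR and 2 higher in DESeq2. Without a replicate term, 0 of 2 erythroid and platelet markers passed in edgeR, with 0 at an unadjusted p below 0.05. DESeq2 fitted 6 genes of this list, and 0 of them passed. With the block 1 of 2 was lower in edgeR (Itga2b) and 1 of 6 in DESeq2. The genes that the block added to any of the lists are named after their values were seen. Of all genes tested, 12.4% were lower and 7.78% higher in edgeR without the block, and 34.8% passed with it in either direction. The calls of Hdc, C5ar1, Ccr2 and Flt3 were each lost without at least 1 library or replicate. Of 8 stress and RNA quality genes 3 were higher in gels, namely Hspa1a (2.78, adjusted p = 0.000515), Hspa1b (3.67, adjusted p = 0.00103) and Jun (0.62, adjusted p = 0.0832), and 6 were higher with the block. This list summed to between 453 and 2273 CPM in gels and to between 214 and 1257 CPM in suspension. The part of these other cells and of stress in the values of the neutrophil genes was not tested.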

How the data were processed

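RNA of 18 mouse DC libraries (single-end stranded mRNA) was measured in 6 groups of 3. Per the submitters' processing notes, reads had been aligned with STAR 2.7.0f to GRCm38, and the authors deposited raw counts for Ensembl genes, without normalization. The study's methods name RSEM for TPM values, which were not used here. The tool behind the count table and the treatment of multi-mapping reads are not given in the sources used here. Symbols matched 29850 of 29875 genes. Computed here, with R 4.3.3, edgeR 4.0.16 and DESeq2 1.42.0, were TMM scaling, filterByExpr, a group-means quasi-likelihood fit over all 18 libraries, and calls at an FDR of 0.1. Log2 CPM used a prior count of 2. SEs come from the F statistic, and 95% intervals use Student's quantile with 12 residual degrees of freedom. Same-numbered libraries share a date and lane, so the numbers pair the libraries. As a check, the correlation of their deviations from group means (over genes, 45 pairs) averaged 0.43, against −0.21 between different numbers. The titles call the replicates biological, but nothing says that they are separate animals. The p-values therefore set differences against the spread between these samples, which need not be that between animals. No 2 of the 153 library pairs held identical counts. On simulated data for gels against suspension with 13411 genes, 25 of 100 changes of 1 log2 unit were recovered (62 with the block), and 78 of 100 of 2 units (92 with it).

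The members, the gene lists and the tests were chosen with earlier results of these data known. Named were all 10 members and their 3 most correlated genes, and from each other list up to 4 called genes with the lowest adjusted p, or else the 2 most expressed. Promoter sequences are from RefSeq (GRCm38.p6), and coordinates from Ensembl on GRCm38. Alternatives were the replicate block, DESeq2's test and size factors, no filter, an FDR of 0.05, only the groups compared, another prior count, unscaled totals, and leaving out each library and replicate. The tests of the replicate number and of its interaction with the gel, the omission of 2 replicate 2 libraries together, and the alternatives for the other lists were chosen after seeing the data. Lymphocyte markers are not reported here.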

Additional observations from a re-analysis of the deposited data

Results flagged for a closer look

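In the 6 suspension libraries, the library titled plus CCL19 replicate 2 lay far from the others for 5 of the 10 neutrophil genes. The gap to the next library, as a share of the whole range in CPM, was 0.908 for Elane (113 against 10.8 CPM), 0.816 for Mpo (64.6 against 12.2 CPM), 0.678 for Ngp (3546 against 1273 CPM), 0.639 for Csf3r (28.8 against 14.5 CPM) and 0.626 for Ltf (2641 against 1060 CPM). All 5 lie above Dixon's 95% critical value for 6 samples. Chance passes that value in about 1 of 20 groups only for normal values from a single population. The gaps were taken in CPM without a log scale, from libraries of 2 groups and several dates. The rate of 1 in 20 therefore need not hold here, and gaps on a log scale were not tested. The same library was also the highest of the 6 for the other 5 genes, with gaps below the critical value, from 0.443 (S100a9) to 0.617 (S100a8). The 10 genes are correlated over the libraries, so these are not separate observations.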

How the results depend on the processing

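For gels against suspension, 1 of 10 genes (Ly6g) was called in the main fit, with the replicate block, with DESeq2 size factors, in DESeq2 with and without the block, and at an FDR of 0.05. With no filter on low counts 2 were called (Ly6g and Ltf, −0.75), beside 9.09% of all genes. Leaving out libraries or replicates gave 0 to 1, with a log2 fold change of Ly6g from −1.85 to −0.82, and the exact permutation test gave 0 to 1 genes without each replicate. Against suspension, the replicate block called 1 gene at 2.6 mg/ml, 2 genes at 3.5 mg/ml, and 1 gene for the highest density, as did DESeq2 with the block. DESeq2 without it called 1 at 2.6 mg/ml, as did the fit without replicate 1 (0 to 1 over all left-out libraries). The block changed no other call of the 10 genes. With no filter, 1 gene was called at 2.6 mg/ml (4.11% of all 29875 genes), 5 at 4.4 mg/ml (7.98%), 1 for the density trend (0.465%), 2 between the suspension groups (0.0335%) and 5 for the difference of the gel effect between replicates (0.85%). The cause was not tested. For the other lists that setting gave 8 of 20 surface and cytosol genes and 3 of 8 specific and gelatinase granule genes lower. It gave 7 of 14 recruiting ligands, 3 of 11 monocyte and macrophage markers and 5 of 8 stress genes higher. Over all genes, the block raised the calls from 2790 to 4823 for gels against suspension.

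Signs of genes that were not called turned. With the block the log2 fold changes were 0.22 for S100a8, 0.093 for Lcn2 and 0.0070 for Elane. With DESeq2 size factors they were 0.0030 (S100a8) and 0.012 (Lcn2), in DESeq2 0.0017 (S100a8) and 0.011 (Lcn2), and in DESeq2 with the block 0.25 (S100a8), 0.13 (Lcn2) and 0.098 (Elane). With the suspension library titled plus CCL19 replicate 2 and the 4.4 mg/ml replicate 2 library both left out, they were 0.59 (S100a8), 0.026 (Ngp), 0.37 (Lcn2), 0.49 (Mpo) and 1.22 (Elane). Ly6g was then called (−1.03, edgeR adjusted p = 0.0913). Over fits that left out a library or a replicate, values ran from −0.27 to 0.49 (S100a8), −0.87 to 0.022 (Ngp), −0.33 to 0.38 (Lcn2), −1.05 to 0.59 (Mpo) and −1.04 to 1.27 (Elane). Csf3r at 4.4 mg/ml ran from −0.42 to 0.10.

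With 3 libraries a group and counts as low as 7, changes of 1 log2 unit would often be missed, and a p above the threshold does not show equal levels.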
